A study of Rattus norvegicus and Ovis aries with 113 samples.

Results

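The actin family was followed through 10 genes in sheep and rat. The set holds the cytoplasmic actins ACTB and ACTG1, the muscle actins ACTA2, ACTC1 and ACTG2, the chromatin-remodelling actin-like genes ACTL6A and ACTL6B, and the spermatid actin-like genes ACTL7A, ACTL7B and ACTRT2. Members were picked by upper-cased symbol, and all 10 were found among the 31304 genes of the sheep table and the 38675 genes of the rat table. The series holds messenger RNA sequencing of 55 sheep libraries and 58 rat libraries, with no treatment given. The sheep libraries came from 5 post-pubertal rams, numbered 687, 688, 690, 694 and 699, with 10 dissected brain regions and a sperm sample from each. The rats were Sprague Dawley: post-pubertal males gave 15 libraries of whole brain and 15 of sperm from seminal fluid, and females, with no age in the labels, gave 14 of whole brain and 14 of ovary. Sheep RNA was extracted with TRIzol and built into Kapa stranded libraries, and rat RNA with a Zymo kit and Watchmaker stranded libraries, so species and kit cannot be told apart. The sperm samples carry no label of a purification step.

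Actin is the protein of the thin filaments that give cells their shape and let muscle shorten. ACTB and ACTG1 are present in nearly every cell, ACTA2 and ACTG2 are the contractile actins of vascular and visceral smooth muscle, and ACTC1 is the cardiac form. ACTL6A and ACTL6B, also called BAF53A and BAF53B, are alternative subunits of the BAF (SWI/SNF) chromatin remodeller: dividing cells carry ACTL6A, and neurons exchange it for ACTL6B as they mature. ACTL7A, ACTL7B and ACTRT2 are made in spermatids, where actin-like proteins form part of the cytoskeleton around the acrosome and the calyx of the sperm head.

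Library totals were 46.7 to 72.4 M counts in sheep brain, 13.7 to 65.1 in sheep sperm, 38.2 to 119 in rat brain, 50.5 to 60.3 in ovary and 13.7 to 65.1 in rat sperm. A few entries took very unequal parts of these totals. The top 4 held 90.8% and 86.3% of the counts in rat brain libraries 1 and 4, where the ribosomal RNA entries Rn45s and Rn28s were among them in library 1. In sheep sperm the top 4, all placeholder symbols, held 22.4% to 85.2%. Levels are therefore given as scaled CPM, the CPM of a library size corrected with trimmed-mean (TMM) factors, which ran from 0.114 to 0.305 in sheep sperm. Levels of different genes were not compared, because no transcript length was at hand. The label of the sperm samples was set against 13 late spermatid and sperm markers. All 13 were detected in sperm of both species, but detection alone cannot check the label. Only 1 of the 13 had no count in male rat brain, and 2 to 5 had none in each sheep brain region. Their summed levels did differ. The sum was 393 to 34161 scaled CPM in rat sperm and 46.4 to 61.8 in male brain. In sheep it was 251 to 8516 in sperm and 22.5 to 67.1 in the brain libraries. Sheep sperm also held neutrophil markers, with a summed level of 13821 to 158833 scaled CPM against a median below 1 in each brain region, and markers of stratified squamous epithelium at 4828 to 92172. Rat sperm held the 4 leukocyte markers at a summed 1193 to 10600 scaled CPM, against 72.6 to 99.0 in male brain. The other immune sums did not rise alike. Neutrophil markers summed to 1.59 to 32.4 in rat sperm and 3.62 to 10.2 in male brain, and microglia markers to 10.6 to 89.7 and 76.1 to 133. Rat sperm libraries 16 and 17 had 441 and 436 genes with 1 to 9 counts, where the other 13 had 1394 to 8389. In all these bulk samples, fewer cells of a type and less RNA per cell cannot be told apart.

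All 10 rat members were placed on the GRCr8 assembly through the RefSeq annotation, which held 38599 of the rat table's genes. Actl7b (chr5:76240739-76242127) and Actl7a (chr5:76242201-76245647) are neighbours on opposite strands, with 73 bases between the records, and Actrt2 lies far away at chr5:170518470-170519870. Acta2 is at chr1:241159723-241172503, Actg1 at chr10:106118106-106120951, Actb at chr12:16776664-16779634, Actg2 at chr4:117579513-117604379 and Actl6b at chr12:24761660-24778193. Actl6a (chr2:117413206-117436758) overlaps Mrpl47, and Actc1 (chr3:121266291-121271827) overlaps an uncharacterised locus. Reads in those overlaps could be divided between the records, and the rat genome also holds near copies of Actg1, so their counts carry that uncertainty.

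Promoter sequence was at hand for 9 of the 10 rat members, all but Actb. The 250 bases before the RefSeq start site are shown for 4 of them, because these genes move together or apart in the data below: the neighbouring spermatid pair, the leading smooth muscle gene and the cytoplasmic actin that differed most between sperm and brain. Each is written 5′ to 3′ on the gene's own strand, GRCr8, with motif matches in capitals.
Actl7a: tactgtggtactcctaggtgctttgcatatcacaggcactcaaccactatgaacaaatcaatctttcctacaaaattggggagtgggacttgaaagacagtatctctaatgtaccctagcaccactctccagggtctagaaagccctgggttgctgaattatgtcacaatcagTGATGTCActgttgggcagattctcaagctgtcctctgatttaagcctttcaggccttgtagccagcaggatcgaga
Actl7b: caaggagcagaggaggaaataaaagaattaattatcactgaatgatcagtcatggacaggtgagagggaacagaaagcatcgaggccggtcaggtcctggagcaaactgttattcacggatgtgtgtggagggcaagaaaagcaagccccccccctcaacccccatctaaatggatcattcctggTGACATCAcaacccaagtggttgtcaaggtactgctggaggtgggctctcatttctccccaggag
Acta2: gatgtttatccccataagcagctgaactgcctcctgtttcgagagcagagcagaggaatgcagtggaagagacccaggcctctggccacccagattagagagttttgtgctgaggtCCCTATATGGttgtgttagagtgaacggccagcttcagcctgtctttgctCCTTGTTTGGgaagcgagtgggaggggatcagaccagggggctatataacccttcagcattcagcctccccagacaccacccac
Actg1: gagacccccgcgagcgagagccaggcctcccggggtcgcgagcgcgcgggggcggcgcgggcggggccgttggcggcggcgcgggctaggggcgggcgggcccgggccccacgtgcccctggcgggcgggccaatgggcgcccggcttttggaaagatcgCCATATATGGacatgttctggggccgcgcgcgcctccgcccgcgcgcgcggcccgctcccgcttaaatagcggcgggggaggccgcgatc
The windows are chr5:76243922-76244171 on the plus strand for Actl7a, and on the minus strand chr5:76242128-76242377 for Actl7b, chr1:241172504-241172753 for Acta2 and chr10:106120952-106121201 for Actg1. The Actl7b window overlaps the Actl7a record. The Actl7a window lies inside that record too, before a start site within it rather than before its first base. The capitals in Actl7a and Actl7b are the octamer TGATGTCA, a variant of the cyclic AMP response element, 77 to 70 bases before the start in Actl7a and, on the other strand, 65 to 58 bases before it in Actl7b. That octamer was picked after the sequences were seen, and both strands of all 33469 rat promoter windows were searched: 1273, or 3.80%, hold it. The full element TGACGTCA occurs in 531 windows (1.59%) and in no member. The capitals in Actg1 are a CArG box, the site of serum response factor, 90 to 81 bases before the start, a motif found in 501 windows (1.497%). Acta2 holds none, but it holds 2 CArG boxes with 1 G or C in the middle, 134 to 125 and 84 to 75 bases before the start, and Actc1 holds 3 of that kind, which occur in 2289 windows (6.84%). A match is a description of the letters and not evidence of binding.

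**Figure D1:**
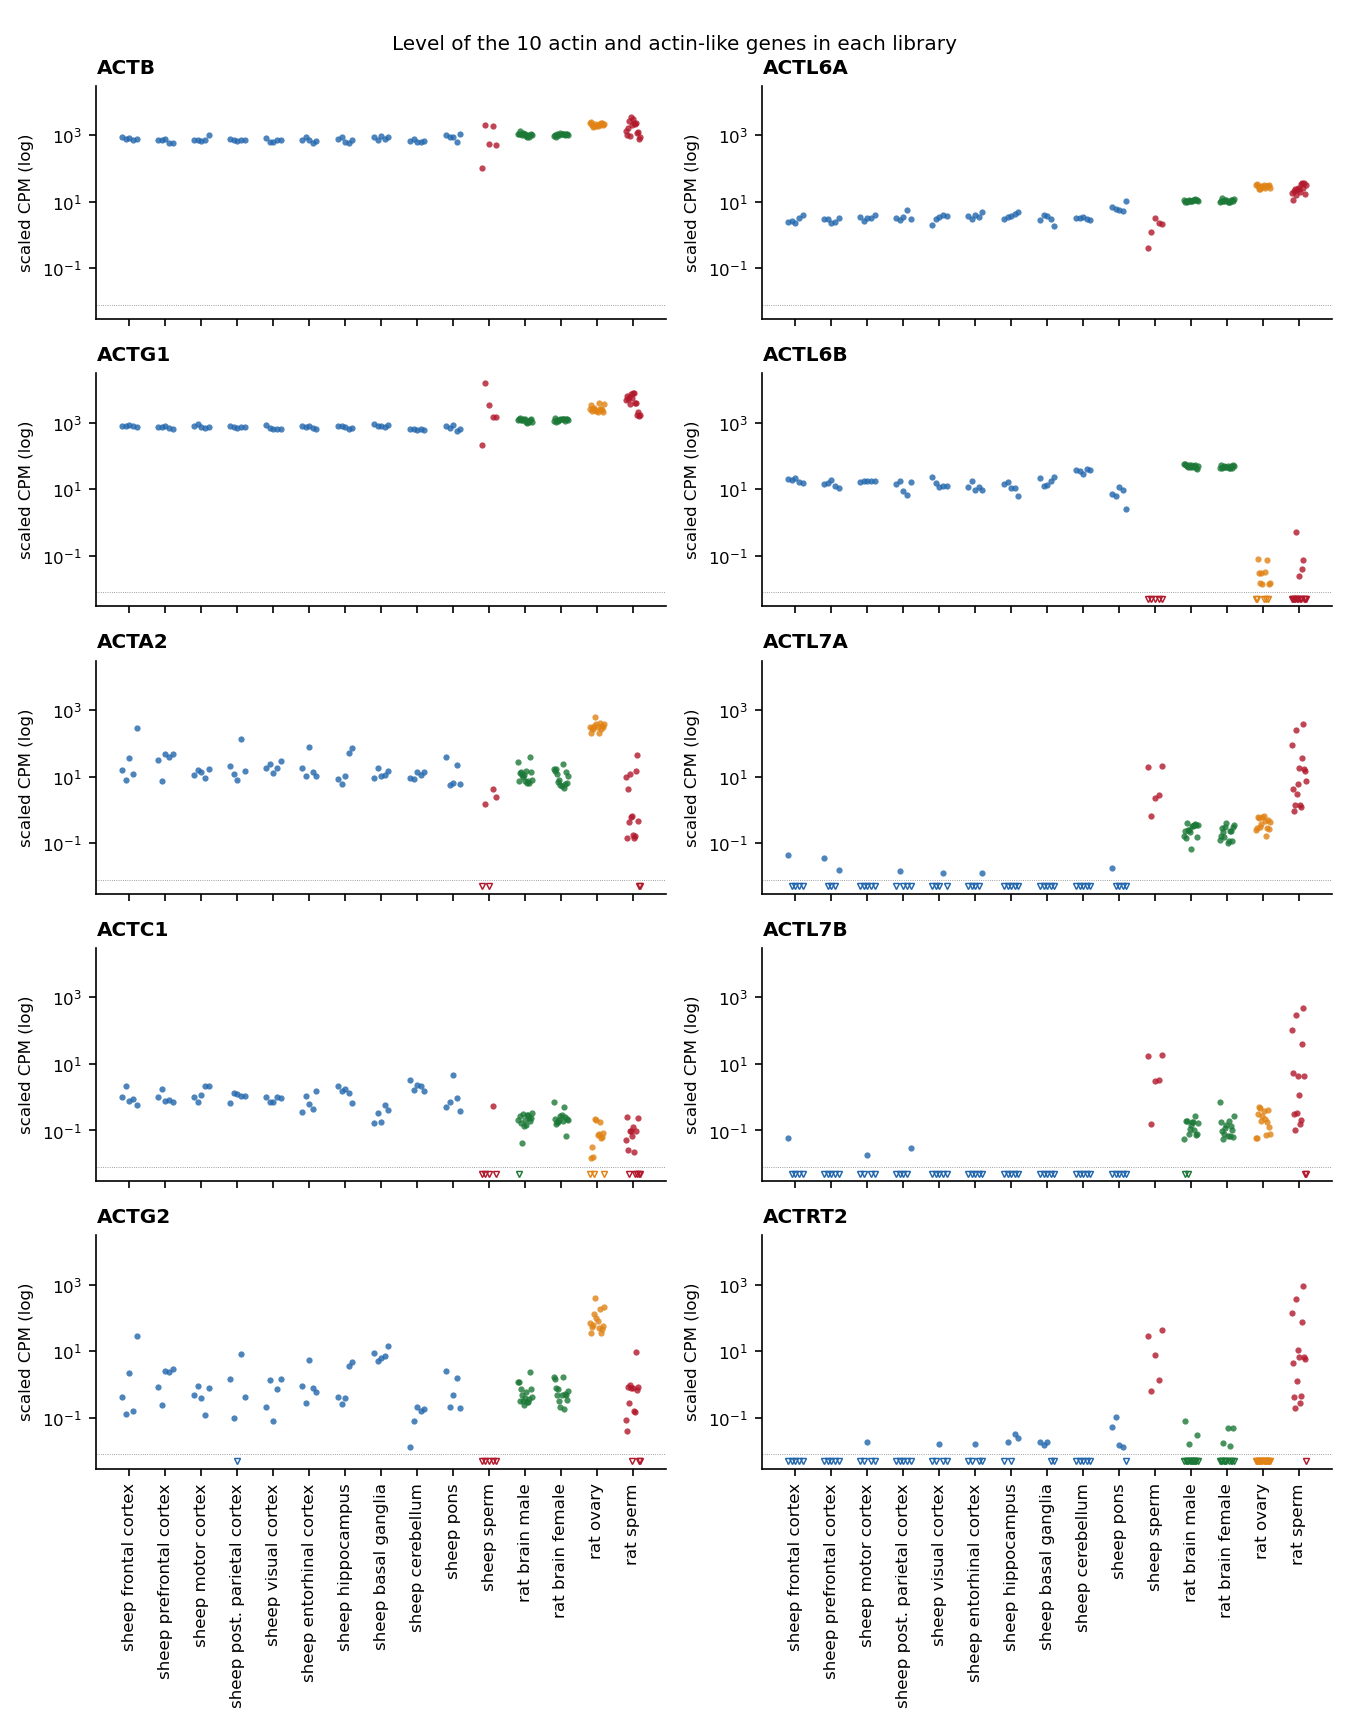
Scaled CPM (log axis) of the 10 genes in all 113 libraries, 1 point per library and 1 panel per gene. Open triangles below the dotted line are libraries with no count. ACTB and ACTG1 each keep a narrow range on this axis over the brain libraries, and ACTL6B is high in brain and near 0 in sperm and ovary. ACTL7A, ACTL7B and ACTRT2 are high in sperm with a wide spread.

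Cytoplasmic actins. With TMM factors ACTG1 was called higher in sperm than in brain in both species, and ACTB was not. In sheep the ACTG1 call was lost with plain library totals, and the sheep libraries did not all go the same way. In the rat, ACTB stood at 767, 1599 and 3401 scaled CPM (lowest, median, highest; n = 15) in sperm and at 886, 1052 and 1290 in male brain. In sperm 9 of the 15 libraries lay above the brain range, 2 lay below it and the groups overlapped. The log2 change was 0.81 ± 0.18 (SE; edgeR quasi-likelihood adjusted p = 0.00022), under the 2-fold minimum set for a call between organs, where a call also needs an adjusted p below 0.05. ACTG1 stood at 1545, 4684 and 7713 in rat sperm and at 1002, 1168 and 1384 in male brain, without overlap (31.8% of all genes tested were called without overlap). Its level rose by a log2 of 1.98 ± 0.22 (edgeR adjusted p = 1.1e-09). The summed leukocyte markers were 1193 to 10600 scaled CPM in rat sperm and 72.6 to 99.0 in male brain. Their part in the ACTG1 level was not tested. Of the 8 members tested in this comparison, 4 were called higher and 1 lower, beside 27.7% and 31.5% of all 20480 genes tested (59.1% in either direction). The members' median log2 change was 1.00 against -0.03 over all genes tested. Among the called members, ACTL7A passed the filter on low counts only through sperm and ACTL6B only through brain. ACTL7B passed it with libraries of both groups, and neither group alone would have sufficed. The counts and the median therefore describe the set and are no test of it. ACTB, at a change under 2-fold, stood outside those calls.

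In sheep sperm, ACTG1 stood at 218 scaled CPM in sheep 687, 15453 in 688, 3304 in 690, 1461 in 694 and 1482 in 699. ACTB in the same libraries stood at 103, 2076, 544, 1836 and 497. The 50 brain libraries of the same 5 sheep ran from 568 to 920 for ACTG1 and from 574 to 1099 for ACTB, so ACTG1 was below every brain library in sheep 687 and above every one in the other 4. ACTB was above every brain library in sheep 688 and 694 and below every one in sheep 687, 690 and 699. ACTG1 was called higher, with a log2 change of 2.59 ± 0.23 (edgeR adjusted p = 1.6e-14), and ACTB was not, at 0.44 ± 0.22 (adjusted p = 0.065). The fit takes 1 dispersion per gene over the 50 brain and 5 sperm libraries together. These SE and p-values therefore mostly reflect the brain libraries and do not measure the wide spread between the sperm samples. Without sheep 688 the ACTG1 change was 1.19 (adjusted p = 2.8e-06), and without each of the other 4 sheep it was 2.68 to 2.91. Here 1 of the 7 members tested was called higher and 5 lower, beside 33.1% and 41.1% of all 21859 genes tested (74.2% in either direction). The median was -3.10 for the members against -0.42 for all. ACTG2 and ACTL6B, with no count in sheep sperm, passed the filter on low counts only through brain. These counts and medians are therefore a description and no test. The directions rest on the scaling. With plain library totals, which move the median of all genes by -2.42, the ACTB change was -1.74 (adjusted p = 2.2e-06) and the ACTG1 change 0.33 (adjusted p = 0.31). With upper quartile factors ACTB was called higher, at 1.08 (adjusted p = 2.2e-06). With plain totals 17.7% of all calls were upward in place of 44.6%, where upper quartile factors gave 56.1%. The summed neutrophil markers in sheep 687, 688, 690, 694 and 699 were 13821, 158833, 83095, 31082 and 54237 scaled CPM, highest in the library with the highest ACTG1, and their part in the ACTG1 level was not tested.

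The share of ACTG1 in the counts of ACTB and ACTG1 together needs no scaling between libraries. In rat sperm it was 70.4% ± 7.69 (SD, n = 15; 57.9% to 85.9%) against 52.9% ± 0.823 (n = 15) in male brain. All 15 sperm libraries lay above all brain libraries (two-sided permutation test, p = 2e-05, the smallest that 100000 resamples can give; 4e-05 adjusted over 6 share tests). The shares of the sheep sperm libraries were 68.0% (sheep 687), 88.2% (688), 85.9% (690), 44.3% (694) and 74.9% (699), against 49.4% ± 1.61 (n = 5) in the summed brain regions of the same animals. Sheep 694 lay below the brain values and the other 4 above them (exact two-sided permutation test, p = 0.048, adjusted p = 0.057). Paired by animal, the exact sign-flip p was 0.12. In the ovary the share was 55.5% ± 4.07 (n = 14) against 53.7% ± 1.07 in female brain (permutation test, p = 0.14), so the shift seen in rat sperm was not detected there.

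In the ovary both cytoplasmic actins were higher than in female brain. ACTB stood at 1736, 2097 and 2519 scaled CPM (lowest, median, highest; n = 14) in ovary and at 906, 1053 and 1140 in brain. ACTG1 stood at 2012, 2568 and 3743 in ovary and at 1054, 1226 and 1332 in brain, so that neither gene's groups overlapped. Calls without overlap covered 45.4% of all genes tested. The log2 changes were 1.02 ± 0.06 for ACTB (edgeR adjusted p = 1.9e-16) and 1.14 ± 0.09 for ACTG1 (edgeR adjusted p = 2.9e-13). ACTB lay at the 2-fold minimum and fell just under it with RLE scaling (0.99) and without rat brain libraries 1 and 4 (0.99). With DESeq2, and with voom and quality weights, the members called higher also fell from 5 to 4. In this comparison 5 of 8 tested members were called higher and 2 lower, beside 27.7% and 29.2% of all 20801 genes (56.9% in either direction), with medians of 1.08 and 0.02. Of the 2 called lower, ACTL6B passed the filter on low counts only through brain and ACTC1 only with libraries of both groups. ACTG2, among those higher, passed it only through ovary, so these counts are no test of the set. Across the sheep regions 3 changes passed the adjusted p but stayed under 1.5-fold: ACTB in pons (0.32 ± 0.10), and ACTG1 in basal ganglia (0.20 ± 0.07) and in cerebellum (-0.28 ± 0.08). The means of ACTB ran from 672 ± 52.6 scaled CPM (SD, n = 5) in cerebellum to 894 ± 179 in pons. The ACTG1 means ran from 620 ± 33.7 in cerebellum to 820 ± 76.7 in basal ganglia. The ACTG1 share was lowest in pons, at 44.3% ± 4.78, and lay between 48.0% and 51.3% in the other 9 regions.

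**Figure D2:**
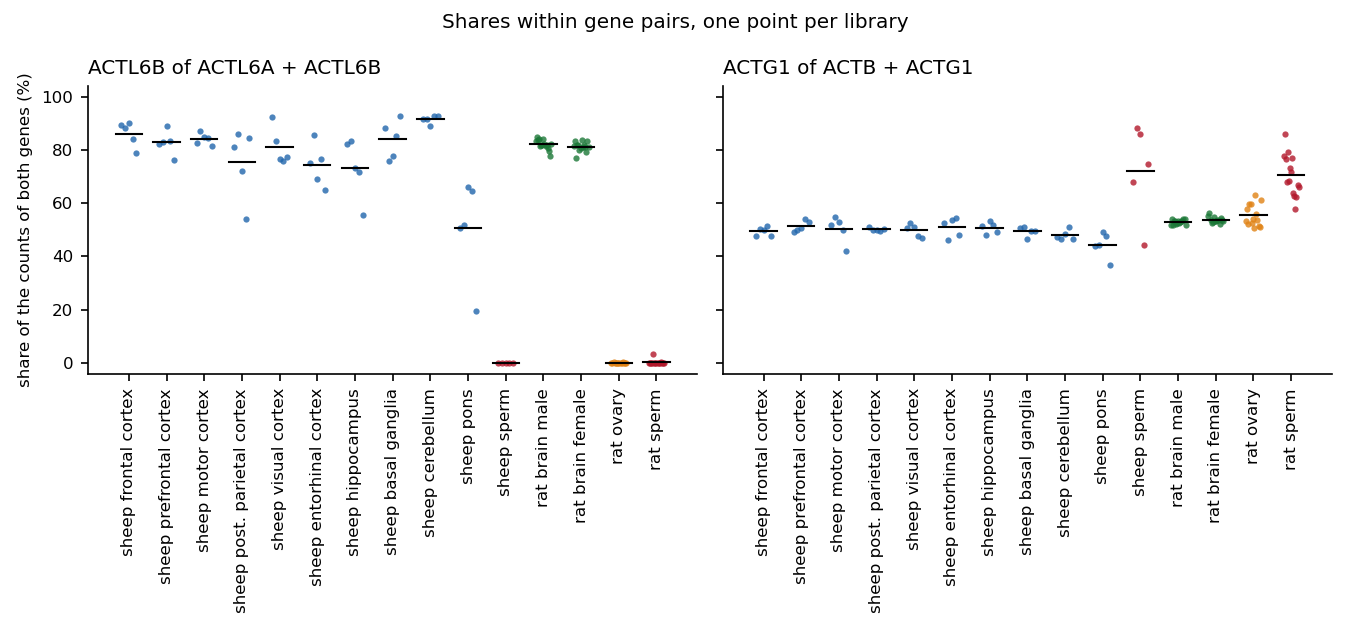
Share (%) of ACTL6B in the counts of ACTL6A plus ACTL6B (left) and of ACTG1 in the counts of ACTB plus ACTG1 (right), 1 point per library with the group mean as a black bar. The ACTL6B share is near 0 in sperm and ovary and lowest among brain regions in sheep pons, and the ACTG1 share is higher in all 15 rat sperm libraries than in rat male brain.

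Muscle actins. ACTA2 and ACTG2 were far higher in ovary than in female brain. ACTA2, the smooth muscle actin of vessel walls and of the theca, stood at 204, 316 and 617 scaled CPM in ovary (lowest, median, highest; n = 14) against 4.65, 9.13 and 23.4 in female brain. ACTG2, the enteric and visceral smooth muscle actin, stood at 34.6, 66.0 and 406 against 0.182, 0.504 and 1.71. Every ovary lay above every female brain for both genes, and ovary 21 was highest for both. The log2 changes were 4.95 ± 0.25 for ACTA2 (edgeR adjusted p = 7.3e-18) and 7.36 ± 0.46 for ACTG2 (edgeR adjusted p = 1.7e-15). Calls without overlap between the groups covered 45.4% of all genes tested. ACTG2 made up 21.7% ± 8.63 (SD, n = 14) of the ACTA2 plus ACTG2 counts in ovary and 6.08% ± 2.38 (n = 14) in female brain. ACTC1, the cardiac actin, was low in both tissues, with 70 counts over the 14 ovaries and 187 over the 14 brains, and fell by 1.66 ± 0.42 on the log2 scale (edgeR adjusted p = 0.00053).

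The other genes of the contractile apparatus moved with them. Of the 12 smooth muscle contractile genes listed, 11 were called higher in ovary, beside 27.7% of all genes tested. Their median log2 change was 3.76 against 0.02 over all genes. CNN1, a calponin that binds actin in smooth muscle, rose by a log2 of 6.43 ± 0.41, from 0.432 to 38.6 scaled CPM. DES, the muscle intermediate filament desmin, rose by 5.51 ± 0.33, from 2.04 to 94.6. Markers of vascular smooth muscle and pericytes summed to 237 to 402 scaled CPM in ovary and to 39.1 to 82.0 in female brain, and their part in the ACTA2 level was not tested. Among SRF and its cofactors, which control actin genes, only MRTFB was called, lower in ovary by 1.41 ± 0.08. Over the 14 ovaries the genes most like ACTA2 were TAGLN (Pearson r 0.960 of log2 levels), FHL1 (0.955) and NFIX (0.938), and ACTG2 had an r of 0.886. The points share a tissue and a library preparation, so these values describe the libraries only.

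In sperm the muscle actins were scarce, with a few exceptions among the rat libraries. Sheep sperm held 78 ACTA2 counts in all, at 0, 1.54, 0, 4.22 and 2.36 scaled CPM in sheep 687, 688, 690, 694 and 699, below the 5.61 to 280 of the 50 brain libraries. ACTA2 was called lower with a log2 change of -3.68 ± 0.82 (edgeR adjusted p = 6.9e-05), and calls without overlap covered 37.2% of all genes. ACTC1 had 5 counts, all in sheep 694, and fell by 3.10 ± 0.69 on the log2 scale (edgeR adjusted p = 6.4e-05). ACTG2 had no count in sheep sperm and 7843 in sheep brain, which makes it at least 31.7-fold lower in scaled CPM when 3 counts over the group are taken as the floor (188-fold in plain CPM; edgeR adjusted p = 0.0061). With voom and quality weights, ACTA2 (adjusted p = 0.36), ACTC1 (0.21), ACTG2 (0.64) and ACTL6A (0.33) lost their calls, and ACTG1 and ACTL6B kept theirs.

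In rat sperm ACTA2 stood at 0, 0.45 and 44.9 scaled CPM (lowest, median, highest) against 6.26, 11.2 and 38.6 in male brain. Library 14 was highest at 44.9, library 13 stood at 15.0, library 7 at 11.8 and library 3 at 9.48, and libraries 16 and 17 had no count, so the groups overlapped. The log2 change of -1.07 ± 0.78 did not pass the test (edgeR adjusted p = 0.21), whereas voom with quality weights gave -4.27 and called it lower (adjusted p = 1.2e-05). ACTG2 in rat sperm ran from 0 to 9.30, with the highest value in library 13, and was not called either (0.63 ± 0.69, edgeR adjusted p = 0.41). ACTC1 was too low to be tested with all libraries, at 52 counts against 191 in male brain, and without rat sperm libraries 16 and 17 it was called lower at -1.28 (adjusted p = 0.013). In rat sperm, where 31.5% of all genes were called lower, 7 of 12 smooth muscle contractile genes were called lower and MYLK, the myosin light chain kinase, higher at 3.08 ± 0.18. TAGLN, the smooth muscle actin-binding protein transgelin, fell by 3.05 ± 0.50. In sheep sperm, where 41.1% of all genes were called lower, 10 of the 12 were, TPM1 at -5.63 ± 0.37 and MYLK at -3.83 ± 0.76 among them.

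Ovary and rat sperm were also set beside each other. ACTA2 was higher in ovary by a log2 of 5.72 ± 0.91 (edgeR adjusted p = 2.0e-06) and ACTG2 by 6.71 ± 0.82 (edgeR adjusted p = 2.3e-08), without overlap, as 22.4% of all genes were. ACTB (0.29 ± 0.17), ACTG1 (-0.71 ± 0.21) and ACTL6A (0.28 ± 0.14) were not called, and ACTC1 was too low to be tested (-0.11 ± 0.75 without the filter, adjusted p = 0.90). Of 8 members tested, 2 were called higher and 3 lower in ovary, beside 27.9% and 22.9% of 19611 genes (50.8% in either direction), with medians of -0.21 and 0.12. ACTRT2, among those lower, passed the filter on low counts only through sperm, and ACTA2 and ACTG2, the 2 higher, only through ovary. ACTL7B passed it with libraries of both groups, and neither group alone would have sufficed. These counts are therefore no test of the set. This comparison shares its ovary libraries with the ovary and brain comparison and its sperm libraries with the sperm and brain comparison, and the sex of the animals cannot be told apart from the tissue.

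In the sheep brain the muscle actins varied both by region and by library. ACTG2 stood in basal ganglia at 9.11, 4.96, 6.11, 7.29 and 14.8 scaled CPM in sheep 687, 688, 690, 694 and 699. In cerebellum it stood at 0.0136, 0.0792, 0.218, 0.156 and 0.188 in the same order. All 5 basal ganglia libraries were above the median of every other region, and all 5 cerebellum libraries lay at or under 0.218. Neither region was separate from every other library. ACTG2 was 28.8 in frontal cortex of sheep 699 and 8.49 in posterior parietal cortex of sheep 694. It was 0 in posterior parietal cortex and 0.0791 in visual cortex of sheep 690. Against the mean of the other 9 regions the log2 change was 2.87 ± 0.64 in basal ganglia (edgeR adjusted p = 0.00048) and -3.81 ± 1.17 in cerebellum (edgeR adjusted p = 0.0046), both past the 1.5-fold minimum used for regions. ACTA2 did not stand apart in either, at -0.97 ± 0.62 (adjusted p = 0.26) and -1.18 ± 0.63 (adjusted p = 0.10). Within the ACTA2 plus ACTG2 counts, ACTG2 made up 40.0% ± 11.8 (SD, n = 5; 21.9% to 51.0%) in basal ganglia and 1.07% ± 0.570 in cerebellum. The means of the other 8 regions lay between 3.12% and 5.27%, under the lowest basal ganglia library.

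**Figure D3:**
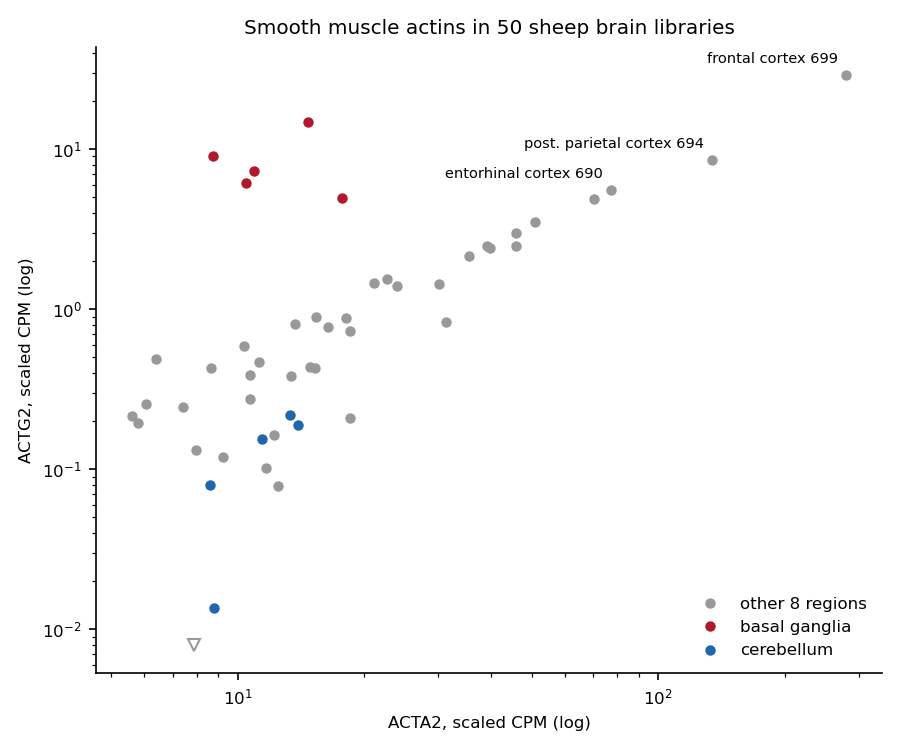
ACTA2 (x, scaled CPM, log axis) and ACTG2 (y, scaled CPM, log axis) in the 50 sheep brain libraries, 1 point each, with an open triangle for the library without an ACTG2 count. The 5 basal ganglia libraries (red) have ACTG2 of 4.96 to 14.8 at ACTA2 of 8.76 to 17.7, off the band of the other regions, and the 3 named libraries lie at its upper end.

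Frontal cortex was the other region with muscle actin calls, and there 1 library decided them. ACTA2 stood at 15.3, 7.97, 35.6, 12.2 and 280 scaled CPM in sheep 687, 688, 690, 694 and 699, and ACTG2 at 0.432, 0.132, 2.16, 0.163 and 28.8. Sheep 699 alone was high for both. The log2 changes were 1.77 ± 0.48 for ACTA2 (edgeR adjusted p = 0.016) and 2.39 ± 0.66 for ACTG2 (edgeR adjusted p = 0.018). Without sheep 699 they were -0.14 (adjusted p = 0.90) and -0.60 (adjusted p = 0.70), and with the animal as a block 1.31 (adjusted p = 0.12) and 1.55 (adjusted p = 0.23). In the same region 6 of 12 smooth muscle contractile genes were called higher, where 5.21% of all genes were called in either direction. DES was among them at 2.36 ± 0.36 and MYH11, the smooth muscle myosin heavy chain, at 2.14 ± 0.57. In the library of sheep 699 the summed level of those 12 genes was 1673 scaled CPM against 216 to 342 in the other 4, and all 12 were highest there. Its summed markers of vascular smooth muscle and pericytes were 472 against 170 to 194.

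ACTC1 was at or below 4.60 scaled CPM in every sheep brain library and varied by region. It stood at 0.173, 0.343, 0.186, 0.600 and 0.408 in basal ganglia of sheep 687, 688, 690, 694 and 699, and at 3.35, 1.68, 2.37, 2.10 and 1.51 in cerebellum. All 5 cerebellum libraries were above all 5 basal ganglia libraries. The log2 change against the other 9 regions was -1.81 ± 0.42 in basal ganglia (edgeR adjusted p = 0.00075) and 1.13 ± 0.31 in cerebellum (edgeR adjusted p = 0.0017). Of the 70 member and region pairs tested, 9 were called, 2 in basal ganglia, 3 in cerebellum, 2 in frontal cortex and 2 in pons. All genes tested gave 17.4% called in basal ganglia, 43.4% in cerebellum, 5.21% in frontal cortex and 31.8% in pons. The 6 regions without a called member had 3.05% (entorhinal cortex), 7.65% (hippocampus), 2.67% (motor cortex), 6.5% (posterior parietal cortex), 4.53% (prefrontal cortex) and 4.13% (visual cortex) of all genes called.

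BAF subunits. ACTL6B was the brain gene of the set. In sheep sperm it had no count, against 54619 in sheep brain, at least 221-fold lower in scaled CPM with 3 counts over the group as the floor (1310-fold in plain CPM). In rat sperm it had 34 counts in 4 of 15 libraries against 42310 in male brain, and in ovary 20 counts in 9 of 14 libraries against 37303 in female brain. Its level in rat brain was 39.4 to 57.2 scaled CPM over 29 libraries, and no sperm library exceeded 0.517. The log2 changes were -12.85 ± 0.75 in sheep sperm (edgeR adjusted p = 1.6e-20), -9.88 ± 0.65 in rat sperm (edgeR adjusted p = 6.8e-15) and -10.97 ± 0.20 in ovary (edgeR adjusted p = 7.2e-29). The first of these is a fit to a group at 0 and depends on the prior count.

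ACTL6A moved differently in the tissues. In ovary it stood at 23.9, 29.3 and 34.7 scaled CPM (lowest, median, highest, n = 14) against 9.76, 10.7 and 12.8 in female brain. The groups did not overlap (45.4% of all genes tested were called without overlap). The log2 change of ACTL6A was 1.41 ± 0.06 (edgeR adjusted p = 1.1e-20). In rat sperm it stood at 11.3, 24.7 and 35.9 against 9.59, 10.8 and 12.4 in male brain, a change of 1.20 ± 0.13 (edgeR adjusted p = 8.9e-10). Only rat sperm library 4 fell into the brain range. That change dropped under 2-fold with RLE scaling (0.94), DESeq2 (0.94) and plain totals (0.88). In sheep sperm ACTL6A stood at 0.403, 1.21, 3.29, 2.33 and 2.13 in sheep 687, 688, 690, 694 and 699, on 68 counts in all, against 1.88 to 10.2 in the 50 brain libraries. It was called lower at -1.001 ± 0.24 (edgeR adjusted p = 0.00018), at the 2-fold minimum. It was not called with RLE (-0.75) or upper quartile factors (-0.25), DESeq2 (-0.82), or without sheep 687 (-0.77) or 688 (-0.87).

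The share of ACTL6B in the counts of the ACTL6A and ACTL6B pair needs no scaling either. It was 82.1% ± 1.85 (SD, n = 15) in rat male brain, 81.3% ± 1.74 (n = 14) in female brain and 81.4% ± 2.95 (n = 5) in the summed sheep regions. In rat sperm it was 0.245% ± 0.815 (n = 15; permutation test, p = 2e-05, 4e-05 adjusted), with 11 libraries at 0, where 577 to 1835 counts of the pair allow up to 0.163% to 0.520%. The highest was library 7 at 3.18% (95% Clopper-Pearson interval 2.10% to 4.59%), which covers counting error only. In ovary it was 0.0776% ± 0.0894 (n = 14; permutation test, p = 2e-05, 4e-05 adjusted). In sheep sperm it was 0 in all 5 libraries (exact permutation test, p = 0.0079, the smallest that 5 against 5 can give, 0.012 adjusted), on only 3 to 21 counts each. The upper limit was 14.3% in sheep 694 (21 counts), 15.8% in 699, 20.0% in 688 and 30.0% in 690. In sheep 687, with 3 counts, it was 100%, so that share is not bounded. Paired by animal the exact sign-flip p was 0.062, the smallest that 5 pairs can give.

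The other BAF subunits did not form a single pattern. Of the 3 neuronal subunits listed, 2 were called lower in ovary and in rat sperm and 3 in sheep sperm. DPF1, a zinc finger subunit of the neuronal complex, fell by 2.30 ± 0.10 in ovary, by 5.90 ± 0.61 in rat sperm and by 3.05 ± 0.32 in sheep sperm, and SS18L1 (CREST) fell by 1.92 ± 0.06 in ovary and by 2.93 ± 0.32 in sheep sperm. Of the 3 counterparts found in progenitors, SS18 rose by 1.13 ± 0.04 in ovary and by 1.06 ± 0.08 in rat sperm, the only call in each. In sheep sperm all 3 were lower, and PHF10 fell by 4.10 ± 0.29. Of the 16 subunits shared by both forms, 3 were higher and 5 lower in ovary, 2 and 6 in rat sperm, 1 and 9 in sheep sperm. The shares of all genes called higher were 27.7%, 27.7% and 33.1% in the same order. The shares called lower were 29.2%, 31.5% and 41.1%, so the counts called lower in ovary and rat sperm lie near the background. SMARCD2, a core accessory subunit, rose by 2.39 ± 0.12 in rat sperm and by 1.74 ± 0.06 in ovary. BCL11B, a zinc finger subunit of neurons and T cells, fell by 4.85 ± 0.31 in rat sperm and by 4.57 ± 0.17 in ovary. Of the 7 INO80 and TIP60 genes, whose complexes also hold ACTL6A, 2 were higher and 4 lower in sheep sperm.

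**Figure D4:**
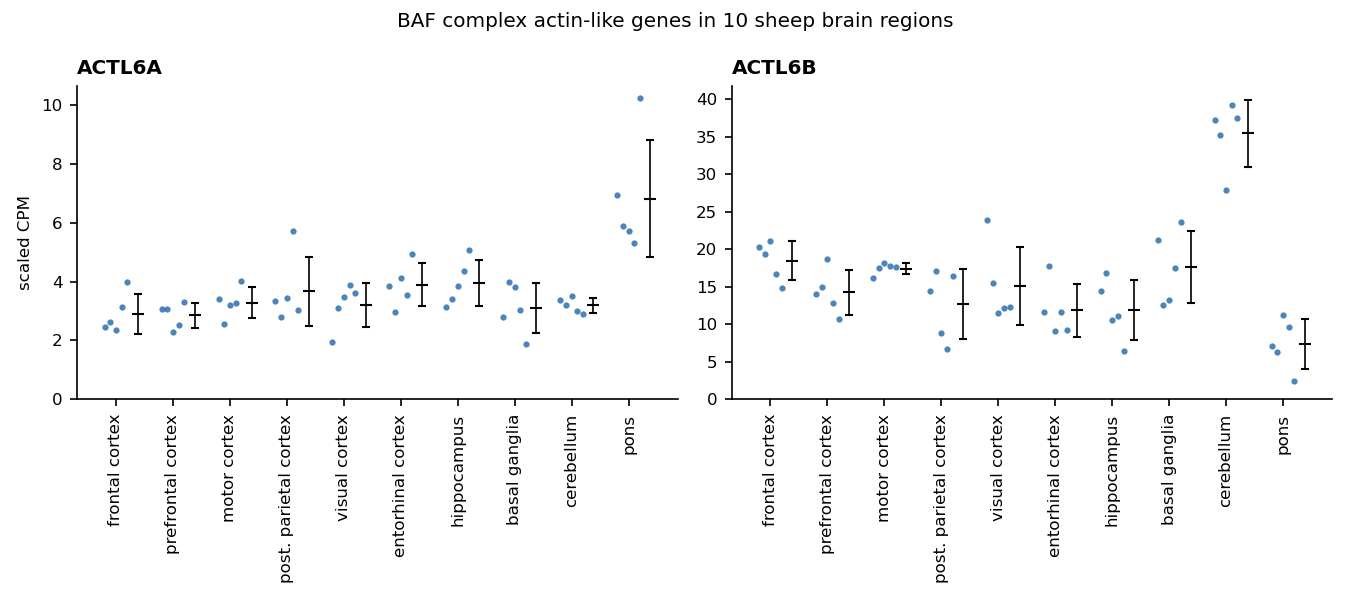
Scaled CPM of ACTL6A (left) and ACTL6B (right) in 10 sheep brain regions, 1 point per animal with the mean and SD beside the points. The 5 cerebellum libraries have ACTL6B of 27.9 to 39.2, above every other library, and the pons has the highest ACTL6A and the lowest ACTL6B.

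ACTL6B also ordered the sheep regions. In cerebellum it stood at 37.2, 35.3, 27.9, 39.2 and 37.5 scaled CPM in sheep 687, 688, 690, 694 and 699, above all 45 libraries of the other regions. In pons it stood at 7.12, 6.32, 11.3, 9.61 and 2.48. The means followed the order cerebellum (35.4), frontal cortex (18.4), basal ganglia (17.6), motor cortex (17.4), visual cortex (15.1), prefrontal cortex (14.2), posterior parietal cortex (12.7), entorhinal cortex (11.9), hippocampus (11.9) and pons (7.36). The log2 change was 1.36 ± 0.17 in cerebellum (edgeR adjusted p = 4.8e-09) and -1.11 ± 0.22 in pons (edgeR adjusted p = 3.9e-05), where calls without overlap covered 11.6% and 2.82% of all genes. The other 8 regions were not called for ACTL6B. Cerebellum did not overlap frontal cortex, its neighbour in that order, and all other neighbours overlapped. The pons range also overlapped those of hippocampus, entorhinal, posterior parietal and prefrontal cortex.

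ACTL6A ran the other way in pons. It stood there at 6.96, 5.89, 5.73, 5.32 and 10.2 scaled CPM in sheep 687, 688, 690, 694 and 699, against 1.88 to 5.72 in the other 45 libraries. Only the posterior parietal library of sheep 694, at 5.72, reached the pons range. The log2 change was 1.07 ± 0.14 (edgeR adjusted p = 3.3e-08). The ACTL6B share was 50.6%, 51.8%, 66.2%, 64.4% and 19.5% in the 5 pons libraries, against 91.6% ± 1.66 in cerebellum. The summed oligodendrocyte markers of those libraries were 44724, 41817, 25006, 13869 and 66366 scaled CPM and the summed neuron markers 2825, 1877, 3875, 1313 and 439. Sheep 699 had the highest oligodendrocyte sum, the lowest neuron sum, the highest ACTL6A and the lowest ACTL6B. The median oligodendrocyte sum was 2122 to 5847 in the other 9 regions. The summed astrocyte markers were 12734 to 17342 in pons, with medians of 2622 to 5081 in the other 9 regions, and the part of these markers in the ACTL6A and ACTL6B levels was not tested.

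The same 2 regions differed in other BAF genes. In pons DPF1 fell by 1.27 ± 0.21 and SS18L1 by 1.08 ± 0.14, and PHF10, the progenitor counterpart, rose by 0.73 ± 0.14. SRF, MRTFA and MRTFB were all called lower in pons, SRF by 1.20 ± 0.11 and MRTFB by 1.51 ± 0.20, where 31.8% of all genes were called in either direction. In cerebellum DPF3 rose by 2.11 ± 0.12, to 119 scaled CPM, DPF1 fell by 1.35 ± 0.21 and BCL11B fell by 6.64 ± 0.49, to 0.172. Over the 10 region means, the genes most like ACTL6B included R3HCC1 (Pearson r 0.994 of log2 levels) and CEP57 (0.990). With 10 points, of which cerebellum is far from the rest, these are descriptions.

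Spermatid actin-like genes. ACTL7A, ACTL7B and ACTRT2 were sperm genes in both species and ran over a wide range between libraries. In rat sperm ACTL7A stood at 0.931, 7.39 and 389.6 scaled CPM (lowest, median, highest; n = 15) against 0.0650, 0.250 and 0.409 in male brain. ACTL7B stood at 0, 1.14 and 470 against 0, 0.112 and 0.268, and ACTRT2 at 0, 6.04 and 922, on 82296 counts, against 4 counts in all of male brain. Every sperm library exceeded every male brain library for ACTL7A, and the groups overlapped for ACTL7B. Calls without overlap covered 31.8% of all genes tested. ACTL7A rose by a log2 of 7.79 ± 0.95 (edgeR adjusted p = 1.0e-08) and ACTL7B by 8.96 ± 1.40 (edgeR adjusted p = 1.0e-06). ACTRT2 did not pass the filter on low counts, and without the filter its log2 change was 13.79 ± 1.67 (edgeR adjusted p = 1.3e-08).

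The 3 genes were highest in the same 4 libraries. ACTL7A was highest in libraries 14 (389.6), 7 (249), 3 (88.6) and 13 (36.3), and so were ACTL7B, at 470, 287, 104 and 38.5, and ACTRT2, at 922, 382, 137 and 78.2. The summed level of the late spermatid and sperm markers was 34161, 25309, 10502 and 3362 in those libraries. It was 9693 in library 10, where ACTL7A was 18.2 and ACTL7B 1.14, and 393 in library 11, the lowest. Over the 15 libraries the genes most like ACTL7A were SPATA3 (Pearson r 0.997 of log2 levels), SPPL2C (0.997) and TSSK3, a testis-specific kinase (0.993). ACTRT2 had an r of 0.952, ACTL7B of 0.906 and ACTA2 of 0.766. All points share the makeup of a library, including its leukocyte markers of 1193 to 10600 scaled CPM, and the part of that makeup was not tested.

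**Figure D5:**
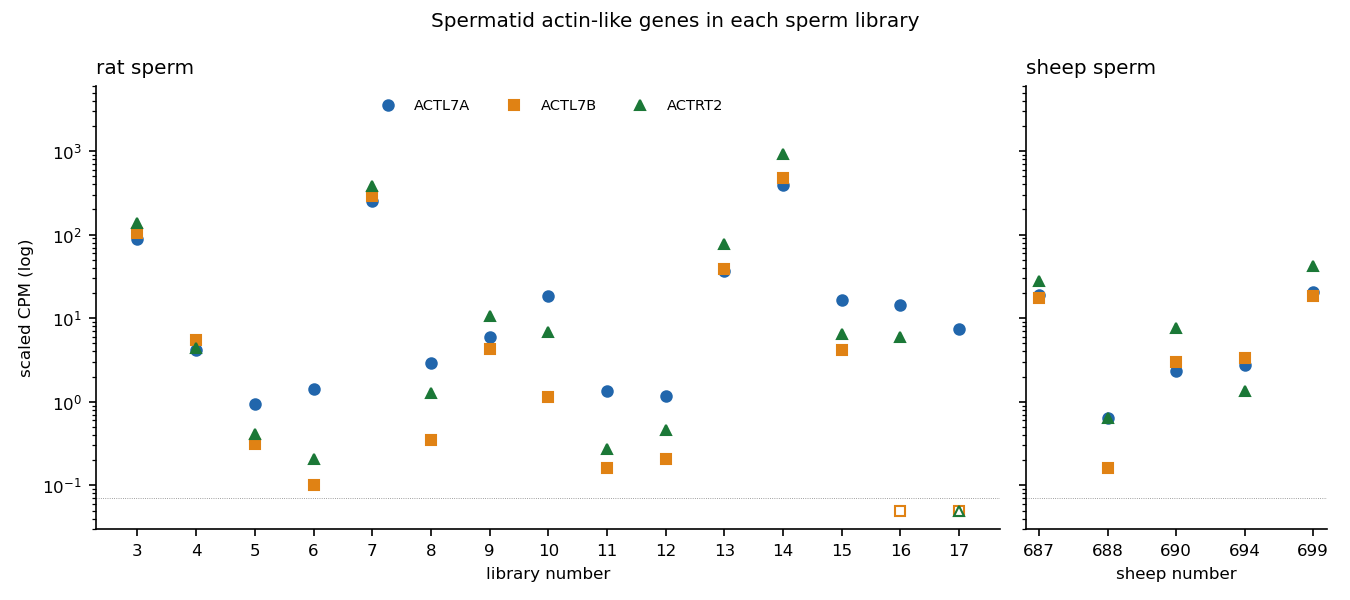
Scaled CPM (log axis) of ACTL7A, ACTL7B and ACTRT2 in the 15 rat sperm libraries (left, by library number) and the 5 sheep sperm libraries (right, by animal). Open symbols below the dotted line have no count. Rat libraries 3, 7, 13 and 14 are highest for all 3 genes. In several of the lower libraries the ratio of ACTL7B to ACTL7A is smaller than in these.

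The share of ACTL7B in the counts of the neighbouring pair ran from 0 to 57.1% over the rat sperm libraries. ACTL7B made up 54.0% of the ACTL7A plus ACTL7B counts in library 3 (95% Clopper-Pearson interval 53.0% to 54.9%), 57.1% in 4, 53.5% in 7, 51.5% in 13 and 54.7% in 14. It made up 42.2% in library 9, 25.0% in 5, 20.5% in 15, 14.9% in 12, 10.6% in 11, 10.5% in 8 and 6.78% in 6. In library 10 it was 5.89% (4.34% to 7.78%; 46 of 781 counts), and in libraries 16 and 17 it was 0 of 493 and 0 of 137 counts, with upper bounds of 0.745% and 2.66%. These intervals cover counting error only, and libraries 16 and 17 are those with few genes at 1 to 9 counts. In male brain the pooled share was 32.9% on 343 counts and in ovary 36.8% on 603 counts. Sheep sperm ran from 20.0% in sheep 688, on 10 counts, to 56.2% in sheep 690, on 16 counts, with 47.7% pooled over the 5 libraries.

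In sheep sperm the 3 genes stayed under the filter on low counts. ACTL7A stood at 18.9, 0.647, 2.30, 2.78 and 20.7 scaled CPM in sheep 687, 688, 690, 694 and 699, ACTL7B at 17.3, 0.162, 2.96, 3.33 and 18.3, and ACTRT2 at 28.1, 0.647, 7.57, 1.33 and 42.1. Sheep 687 and 699 were highest for all 3 and sheep 688 lowest. The summed level of the late spermatid and sperm markers was 8282, 251, 2980, 894 and 8516 in the same order. Sheep brain held 10 ACTL7A, 7 ACTL7B and 24 ACTRT2 counts in 50 libraries, against 365, 333 and 627 in 5 sperm libraries. Without the filter the log2 changes were 11.00 ± 0.43, 11.29 ± 0.53 and 11.43 ± 0.44 (edgeR adjusted p of 4.9e-23, 6.3e-16 and 2.0e-23). Several regions had no count of these genes, so the fitted values depend on the prior count. The ratios of pooled plain CPM were 507, 661 and 363, in another order. DESeq2 gave ACTL7B 11.52 ± 5.03 (adjusted p = 0.032). Of the 24 ACTRT2 counts in brain, 12 were in pons, 7 of them in sheep 688, and 6 in hippocampus. Without the filter edgeR called ACTRT2 higher in pons (3.29 ± 0.60, adjusted p = 5.5e-05) and hippocampus (1.95 ± 0.58, adjusted p = 0.035), and DESeq2 did not call it in pons (3.14 ± 1.78, adjusted p = 0.15).

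In ovary the spermatid genes were at low levels. ACTL7A stood at 0.166, 0.389 and 0.658 scaled CPM (lowest, median, highest) against 0.0999, 0.220 and 0.397 in female brain, a log2 change of 0.87 ± 0.23 that was under 2-fold (edgeR adjusted p = 0.00080). With plain totals the ACTL7A change was called, at 1.21 (adjusted p = 0.00076). ACTL7B stood at 0.0582, 0.209 and 0.510 against 0.0539, 0.110 and 0.732, and without the filter it changed by 0.85 ± 0.36 (edgeR adjusted p = 0.035), under 2-fold. ACTRT2 had no count in the 14 ovaries and 8 in female brain, which edgeR without the filter called lower (adjusted p = 0.0063) and DESeq2 did not (adjusted p = 0.38). Against rat sperm, ACTL7A was lower in ovary by -7.19 ± 0.98 on the log2 scale (edgeR adjusted p = 1.6e-07) and ACTL7B by -8.10 ± 1.42 (edgeR adjusted p = 9.8e-06). Pooled over each group, ACTRT2 was at least 28836-fold lower in plain CPM and 38339.5-fold in scaled CPM, with 3 counts over the group as the floor (edgeR adjusted p = 3.7e-05). The few highest sperm libraries set these bounds, which do not hold for each sperm library and not for any without an ACTRT2 count.

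Other actin-like genes of testis were also higher in rat sperm. ACTL11 rose in sperm by a log2 of 11.80 ± 1.34, from 0.0102 to 47.0 scaled CPM, and ACTRT3, another actin-related testis gene, by 7.46 ± 1.18, from 0.230 to 37.4. In the calyx and sperm head list SPEM1 rose by 5.33 ± 0.85 and ZPBP, the zona pellucida binding protein, by 5.04 ± 0.80. Only 3 of the 6 actin-like genes and 4 of the 10 sperm head genes passed the filter on low counts in that comparison. Genes near 0 in brain pass it only through sperm, so no count of calls over these lists is given. In sheep sperm CAPZA3, the sperm-specific capping protein subunit, rose by 13.97 ± 0.41, from 0.00372 to 62.4 scaled CPM, and CYLC2, a cylicin of the calyx, by 12.28 ± 0.38.

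Partners of actin. The Arp2/3 complex, which nucleates branched filaments, held subunits that moved in opposite directions. ARPC1B rose by 3.98 ± 0.19 in rat sperm, by 3.15 ± 0.17 in sheep sperm and by 3.32 ± 0.11 in ovary. ACTR3B changed by -4.60 ± 0.37, -3.79 ± 0.32 and -4.05 ± 0.24 in the same order. Of the 10 subunits, 3 were higher and 2 lower in rat sperm, 5 and 2 in sheep sperm, 2 and 2 in ovary. All genes tested gave 27.7% higher and 31.5% lower in rat sperm, 33.1% and 41.1% in sheep sperm, and 27.7% and 29.2% in ovary. Among capping and severing proteins, TMOD2, the neuronal tropomodulin, changed by -10.42 ± 0.53 in rat sperm, by -9.82 ± 0.45 in sheep sperm and by -4.82 ± 0.10 in ovary. SCIN, the severing protein scinderin, rose by 11.63 ± 0.45 in rat sperm and CAPG, which caps filament ends, by 7.93 ± 0.18 in sheep sperm. The part of the leukocyte markers of rat sperm and the neutrophil markers of sheep sperm in these rises was not tested. In sheep sperm all 6 actin-related genes of dynactin and chromatin were called lower, ACTR1B by 4.77 ± 0.29, where 41.1% of all genes were called lower. In rat sperm 1 of the 6 was higher and 1 lower. Of the 11 genes of actin folding, which include the CCT chaperonin, 1 was higher and 8 lower in sheep sperm, 3 higher in rat sperm, and 1 higher and 1 lower in ovary.

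Sex and species. Between male and female rat brain none of the 8 members tested was called by edgeR, none had an unadjusted p below 0.05, and DESeq2 and voom called none either. In that comparison 0.112% of 20570 genes were called. The log2 changes of the members ran from -0.15 ± 0.25 (ACTC1) to 0.30 ± 0.27 (ACTA2), and ACTL6B differed by 0.08 ± 0.05. Between species, the change from brain to sperm was compared through an interaction term over 15172 shared genes, of which 62.3% were called, 38.4% toward a lower change in sheep. ACTG2 (-11.97 ± 2.90, edgeR adjusted p = 0.00050) and ACTL6A (-2.23 ± 0.37, edgeR adjusted p = 1.6e-06) were called, both lower in sheep. ACTG2 had no count in sheep sperm, so its fitted value depends on the prior count. ACTB (-0.34 ± 0.47), ACTG1 (0.62 ± 0.60) and ACTL7A (3.29 ± 1.496, adjusted p = 0.052) were not. The members' median was -2.004 against -0.69 over all genes. The share of calls toward a higher change in sheep was 38.3%, and 55.9% with RLE and 52.1% with upper quartile factors, so the direction of terms near 0, such as that of ACTB, turned with the scaling.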

How the data were processed

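RNA sequencing of 113 libraries was analysed from raw read counts per gene. Per the labels and the design text, the authors trimmed 150-base paired reads with Trimmomatic 0.39, aligned them with STAR 2.7.5a to GRCr8 (rat) or ARS-UI_Ramb_v3.0 (sheep) and made the deposited counts with Rsubread 2.20.0. How strand and multi-mapping reads were handled is not given in the sources used here. All columns were mapped to samples (0 were not).

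Counts were scaled with TMM factors and tested with edgeR 4.0.16 (R 4.3.3; quasi-likelihood test, filterByExpr by group, prior count 0.125, Benjamini-Hochberg adjustment over all genes tested). Calls needed an adjusted p below 0.05 and 2-fold between organs and species, or 1.5-fold between regions and sexes. Levels use 1 set of factors per species. The sheep sperm test set the mean of the 10 region means against sperm. Sheep regions come from 5 animals and are not independent of each other, and the labels used here do not tie a rat number to 1 animal, so p-values measure the spread between these libraries. The sheep sperm fit takes 1 dispersion per gene over 50 brain and 5 sperm libraries, so its SE and p-values mostly reflect the brain libraries. Shares were compared by permutation (scipy 1.17.1). Intervals are 95% Clopper-Pearson, a share of 0 is given the upper limit of 3 counts, and both cover counting error only.

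The members and gene lists were chosen with earlier results of these data known. Named list genes are up to 2 called per direction with the largest change with 10 CPM or more, on average, where they are higher, and likeness names the top 3 genes, of which 1 is not reported here. Sheep numbers mark the same animal, per the design text; the correlation of same-numbered deviations ran from 0.05 to 0.14. Alternatives were plain totals, RLE and upper quartile factors, no filter, other fold minimums, DESeq2 1.42.0, voom (limma 3.58.1), the animal as a block, each sheep left out, rat sperm libraries 16 and 17 left out and, chosen after seeing the data, rat brain libraries 1 and 4 left out. The edgeR script was tested on simulated data. Proteomics was not analysed here.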

Additional observations from a re-analysis of the deposited data

Results flagged for a closer look

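Of 74 sets of 1 gene in the 5 sheep libraries of a group, 13 had 1 library far above the rest (a gap over 0.71 of the range). The sets share libraries and the levels were not put on a log scale, so no chance rate is set beside that count. For ACTA2 and ACTG2 both, 3 sheep brain libraries had such a gap. In entorhinal cortex of sheep 690 they stood at 77.1 and 5.52 scaled CPM, against 10.4 to 18.1 and 0.273 to 0.886 in the other 4 sheep. In frontal cortex of sheep 699 they stood at 280.03 and 28.8, against 7.97 to 35.6 and 0.132 to 2.16. In posterior parietal cortex of sheep 694 they stood at 134 and 8.49, against 7.86 to 21.1 and 0 to 1.46. The summed smooth muscle contractile genes of those libraries were 578, 1673 and 950.1 scaled CPM, against 241 to 313, 216 to 342 and 247 to 285, and 9, 12 and 12 of the 12 genes were highest there. Their summed markers of vascular smooth muscle and pericytes were 268, 472 and 470.3, against 112 to 276, 170.3 to 194 and 222 to 333, so the entorhinal library lay within the range of the others. Their summed endothelium markers were 143, 147 and 473, against 52.6 to 105, 56.2 to 82.4 and 70.4 to 164. In hippocampus 2 sheep were high together, which a gap to the nearest library does not pick out: ACTA2 and ACTG2 stood at 50.8 and 3.53 in sheep 694 and at 70.5 and 4.85 in sheep 699, with contractile sums of 694 and 570.2. The other 3 sheep had ACTA2 of 6.05 to 10.7 and contractile sums of 222 to 420 there. A high contractile sum was not particular to libraries high in ACTA2. In cerebellum the contractile sums were 535 to 708, with ACTA2 of 8.58 to 13.9 and summed vascular smooth muscle and pericyte markers of 85.4 to 131.

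The posterior parietal library of sheep 694 was also high for ACTL6A, at 5.72 against 2.81 to 3.44. ACTC1 stood at 2.15 in frontal cortex of sheep 688 (0.568 to 0.983 in the others), at 1.73 in prefrontal cortex of sheep 688 (0.724 to 1.01) and at 4.60 in pons of sheep 690 (0.388 to 0.972). ACTB stood at 986 in motor cortex of sheep 699 (678 to 732) and ACTG1 at 872 in visual cortex of sheep 687 (623 to 679). In sperm of sheep 688, ACTG1 stood at 15453 (218 to 3304), in the library with the highest neutrophil marker sum of the 5 (158833 against 13821 to 83095); the part of that in the result was not tested. The change from brain to sperm differed between species for ACTG2 (-11.97) and ACTL6A (-2.23), lower in sheep, by the interaction term. ACTG2 had 0 counts in sheep sperm, so its value depends on the prior count and is no bound.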

How the results depend on the processing

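With plain library totals these log2 changes reversed: ACTB in sheep sperm (-1.74), ACTG1 (0.17), ACTC1 (0.19), ACTG2 (0.17) and ACTL6A (0.22) between the sexes, and the species term of ACTG1 (-0.47). With voom, ACTB in sheep sperm (-0.26), ACTG2 in rat sperm (-1.34) and frontal cortex (-0.18), ACTB (-0.0074) and ACTG2 (0.10) between the sexes and the species terms of ACTG1 (-0.47), ACTL6B (4.53) and ACTRT2 (2.56) reversed. ACTL6A between the sexes was 0.0015 with RLE, 0.0064 with upper quartile factors, 0.0019 without the filter and 0.0016 with DESeq2, and ACTB was -0.0033 without rat brain libraries 1 and 4. The species term of ACTB was 0.51 with RLE and DESeq2, 0.31 with upper quartile factors and -0.69 (without sheep 688) to 0.033 (without sheep 687) with 1 sheep left out. That of ACTG1 was -0.71 (without sheep 688) to 1.01 (without sheep 687), and that of ACTL6B 1.37 with DESeq2. Leaving out 1 sheep gave frontal cortex changes of -0.14 (without sheep 699) to 2.23 for ACTA2 and of -0.60 (without sheep 699) to 2.96 for ACTG2. Members called in sheep sperm fell from 6 of 7 tested to 2 with voom, and were 9 of 10 tested without the filter and 8 of 10 with DESeq2. Over all genes, 16215 of 21859 were called in the main fit and 11861 of 21859 with voom. Without the filter 20175 of 29381 genes were called, and with DESeq2 18062 of 29381. In the species term members called rose from 2 to 4 (RLE, DESeq2, sheep and rat numbers as replicate block) or 5 (voom). Of 15172 genes, 9446 were called in the main fit of that term, 9022 with RLE, 8964 with the block and 9381 with voom. DESeq2 called 9817 of 15644.

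Genes called rose from 12111 to 22067 (no filter) and 19627 (DESeq2) in rat sperm, from 11832 to 18799 (no filter) and 18431 (no fold minimum) in ovary against brain, and from 9971 to 19449 (no filter) and 17663 (DESeq2) in ovary against sperm. Gene and region pairs fell from 26724 to 16131 with a 2-fold minimum. Between the sexes 23 genes became 78 (DESeq2), 84 (voom), 37 (no fold minimum), 12 (2-fold) and 50 (without rat brain libraries 1 and 4). Leaving out 1 sheep gave 15940 to 16329 genes and 5 to 8 members in sperm, 23102 to 24757 pairs and 7 to 9 member pairs across regions, and 9026 to 9271 genes and 2 to 3 members in the species term. The sheep ACTG1 share difference was 18.8 to 30.1 points with 1 sheep left out, and its exact p was 0.14 without sheep 687, 688, 690 or 699 the replicate block gave 22.8 (exact sign-flip p = 0.12). For ACTL6B the block gave -81.4 (exact p = 0.062). The causes were not tested.

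Rat numbers are only shared numbers: deviations correlated at -0.07 to 0.23 (3 of 15 best with their own number) in sperm and at -0.15 to 0.10 (3 of 14) in ovary. With the replicate block 11925 genes and 6 members were called in rat sperm, with ACTA2 newly called lower at -4.08 and ACTG2, not called, at -1.04, and 11837 genes and 7 members in ovary. In the species term the block, which uses the sheep and also the rat numbers, turned ACTG1 to -0.39 and called ACTL7A (5.43) and ACTL7B (7.43), and in frontal cortex it ended the calls of ACTA2 (1.31) and ACTG2 (1.55). It changed no other member call. ACTC1 had 5 counts over the sheep sperm libraries, too few to resolve its level.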
